A study of Mus musculus with 15 samples.

Results

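The genes of AMP-activated protein kinase (AMPK) and of the kinases that switch it on were followed in CD4+ T cells that kept or lost the catalytic subunit AMPKα1. The set held 9 of the 55421 genes with a deposited count and was chosen by mouse gene symbol. Its members were Prkaa1 and Prkaa2 (the catalytic α1 and α2 subunits), Prkab1 and Prkab2 (β1 and β2), Prkag1, Prkag2 and Prkag3 (γ1, γ2 and γ3), and the upstream kinase genes Stk11 (LKB1) and Camkk2 (CaMKK2). Reads were counted for 7 of the 9 at a level that could be tested. Prkaa2 and Prkag3 never exceeded 1 count in any sample.

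All donor cells came from C57BL/6 mice with floxed alleles of the α1 gene (PRKAA1fl/fl), aged 6 to 8 weeks by the study's methods. WT donors carried these alleles without Cre, and KO donors carried them together with CD4-Cre, which deletes in T cells from the CD4+CD8+ thymocyte stage on. Naive WT or KO cells were injected into Rag2-/- mice (Rag KO in the labels), the model of T cell transfer colitis. CD4+ T cells were sorted 6 weeks later out of spleen and mesenteric lymph nodes (mLN). The study reports that recipients of WT cells lost weight, while recipients of KO cells kept theirs and had mild inflammation. Genotype and disease severity at sampling thus cannot be told apart. The samples numbered 4 for WT spleen, 4 for KO spleen, 3 for WT mLN and 4 for KO mLN. The recipients have no mature T or B cells of their own but keep other host cells with an intact Prkaa1. The sources do not say which exon lies between the loxP sites, and a count for the whole gene also takes in reads from exons that remain after deletion. By the study's legends each group was made up of separate mice from a single experiment. P-values of KO against WT thus measure the spread between mice within that experiment. Spleen and mLN samples of a genotype may come from the same mice. The main fits between the organs and of the interaction treated them as unpaired.

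AMPK is a complex of a catalytic α, a scaffolding β and a regulatory γ subunit, and it senses energy shortage because AMP and ADP bind the γ subunit in place of ATP. It becomes fully active when a threonine in the activation loop of the α subunit is phosphorylated. LKB1 does this when energy is low, and CaMKK2 does it when calcium rises, as after triggering of the T cell receptor. Active AMPK restrains anabolic metabolism and mTORC1 and favours catabolism and autophagy, and α1 is known as the main catalytic subunit of lymphocytes.

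The activation loop was compared between the catalytic subunit genes because it carries the phosphorylated threonine and because it shows whether a read could be assigned to the wrong α gene. The loop (from its DFG to its APE motif) takes up bases 502 to 582 of the 1677 coding bases of Prkaa1 and bases 469 to 549 of the 1656 coding bases of Prkaa2. In both genes it spans exons 4 and 5 of 9. On GRCm38 it lies within chr15:5168706-5170002 on the plus strand for Prkaa1 and within chr4:105049348-105051208 on the minus strand for Prkaa2, each with an intron after base 7. The coding sequences (GENCODE M21 transcripts, 5′ to 3′) are shown with the bases that differ between the pair in capitals.
Prkaa1: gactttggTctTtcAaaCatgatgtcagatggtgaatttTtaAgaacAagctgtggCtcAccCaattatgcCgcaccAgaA
Prkaa2: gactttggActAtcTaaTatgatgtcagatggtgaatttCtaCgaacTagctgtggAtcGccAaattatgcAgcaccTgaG
The pair differed at 13 of these 81 bases, 11 of them at the third position of a codon, and 0 of the 27 codons encoded another amino acid. The identical protein loop is thus written in different bases, and the longest run of bases shared by any transcripts of Prkaa1 and Prkaa2 was 35, shorter than a read of 75 bases. None of the 75-base words of the Prkaa1 or Prkaa2 transcripts occurred in a transcript of another gene on either strand. The longest runs shared within the other families were 23 bases for Prkab1 and Prkab2 and 17 bases for Prkag2 and Prkag3.

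Each sample had 9363940 to 11283439 reads on genes (median 10545309), and levels are given as counts per 1000000 of these reads (CPM). All 10 T cell marker genes were detected in every sample, with a summed level of 8023 to 10794 CPM, and Cd4 stood at 996 to 1299 CPM. The 32 marker genes of other cells (CD8 T, B, NK, myeloid, dendritic, erythroid and stromal) summed to 474 to 1943 CPM in WT spleen, 411 to 840 CPM in KO spleen, 377 to 916 CPM in WT mLN and 381 to 422 CPM in KO mLN. In mLN, the summed level was 7.18 to 11.6 CPM in WT and 18.9 to 28.2 CPM in KO for the 2 CD8 T cell genes, 2.40 to 7.51 and 3.12 to 8.32 CPM for the 5 B cell genes, 42.3 to 57.5 and 72.9 to 122 CPM for the 4 NK genes, and 20.4 to 28.3 and 30.3 to 46.0 CPM for the 5 dendritic genes. The sums of the other lists did not rise in this way. They were 93.9 to 234 CPM in WT mLN and 92.5 to 103 CPM in KO mLN for the 8 myeloid genes. For the 4 erythroid genes they were 17.4 to 624 and 13.8 to 55.3 CPM, and for the 4 stromal genes 99.1 to 134 and 97.4 to 117 CPM. The CD8 T sums differed through Cd8a (mean 4.78 CPM in WT mLN and 18.4 CPM in KO mLN), while Cd8b1 had means of 4.45 and 4.31 CPM. Of these markers of other cells, Eomes (NK) and Acta2 (stromal) passed the test of KO against WT in both organs and Pax5 (B cell) passed it in mLN, each with KO higher. The B cell gene Ms4a1 was at 0 in every mLN sample. The part of other cells in the differences of the members was not tested. In sorted bulk samples, a smaller share of cells with a transcript and less of it per cell cannot be told apart.

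The question of the KO against WT comparison was which genes change in T cells without AMPKα1. For the members it was whether Prkaa1 was lost as labelled and whether any other subunit or upstream kinase differed beside it. Prkaa1 fell in both organs, and no other member passed the test. Prkaa1 (ENSMUSG00000050697.9, chr15:5143861-5181899, plus strand) had 53.9, 50.2, 46.3 and 54.1 CPM in the WT spleen samples and 20.4, 21.7, 18.4 and 20.1 CPM in the KO spleen samples. In mLN it had 49.0, 60.9 and 50.1 CPM in WT and 25.0, 32.2, 21.4 and 32.1 CPM in KO. The WT and KO samples did not overlap in either organ, which was also so, with KO lower, for 6.31% of all genes tested in spleen and 6.94% in mLN.

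**Figure D1:**
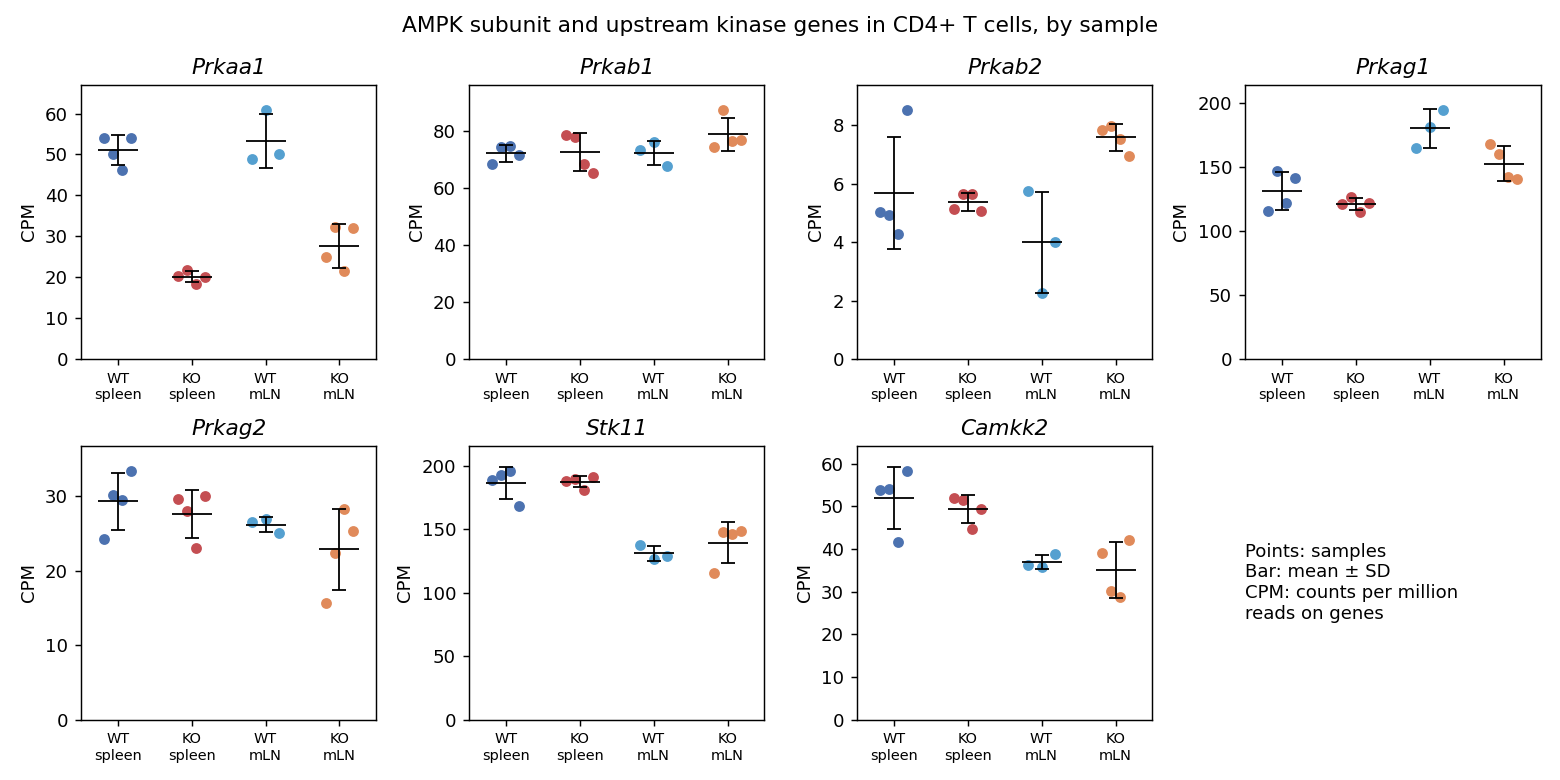
Level of each tested member in CPM (y axis, from 0) by group (x axis). Points are samples and bars are the mean with its SD. The KO samples lie at 18.4 to 32.2 CPM for Prkaa1, all below the WT samples at 46.3 to 60.9 CPM, while the WT and KO ranges overlap within each organ for the other genes except Prkab2 in mLN.

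In spleen, the Prkaa1 level fell from 51.1 ± 3.71 CPM (SD, n = 4) to 20.1 ± 1.38 CPM (n = 4), a log2 fold change of -1.33 (SE 0.082, 95% interval -1.51 to -1.15, adjusted p = 7.63e-05, edgeR quasi-likelihood test with Benjamini-Hochberg adjustment over all genes tested). In mLN it fell from 53.3 ± 6.57 CPM (n = 3) to 27.7 ± 5.37 CPM (n = 4), a log2 fold change of -0.95 (SE 0.164, 95% interval -1.32 to -0.59, adjusted p = 0.0372). The mLN call was lost when any of the 7 mLN samples was left out (log2 fold change -1.03 to -0.85, adjusted p 0.0534 to 0.161), and the spleen call held without each of its 8 samples in turn (adjusted p at most 0.00123). Of the 7 members tested, 1 was called lower in each organ, beside 1.3% of all genes called in either direction in spleen (0.751% lower) and 0.641% in mLN (0.292% lower). The exact permutation test of the CPM values gave p = 0.0286 in spleen and 0.0571 in mLN (two-sided), each the smallest p that its group sizes allow.

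A share of the Prkaa1 reads remained in every KO sample. The KO mean was 39.4% of the WT mean in spleen, with single KO samples at 35.9% to 42.5%. In mLN it was 51.9%, with single samples at 40.1% to 60.4%. The remaining share was higher in mLN on average, but KO mLN sample 3 (40.1%) lay within the spleen range. The interaction of genotype and organ for Prkaa1 did not pass the edgeR test (0.37, unadjusted p = 0.0537, adjusted p = 0.9998). The markers of other cells, some of which could come from host cells with an intact Prkaa1, differed between the organs in both directions. From KO spleen to KO mLN, the median sum of the myeloid genes went from 219.9 to 100.9 CPM, that of the NK genes from 100.5 to 89.0 CPM and that of the erythroid genes from 40.9 to 37.0 CPM. It went from 2.40 to 21.8 CPM for the CD8 T genes, from 2.83 to 6.60 CPM for the B cell genes, from 30.6 to 36.6 CPM for the dendritic genes and from 84.5 to 108.6 CPM for the stromal genes. Whether the CD8 T and B cell sums came from transferred or host cells was not tested. Cd8a had a mean of 0.828 CPM in KO spleen and 18.4 CPM in KO mLN, and Cd8b1 had 1.86 and 4.31 CPM. The NK sum was mostly Eomes (mean 90.5 CPM in KO spleen and 88.0 CPM in KO mLN). The stromal sum was mostly Pecam1 (mean 78.7 CPM in KO spleen and 101.9 CPM in KO mLN). The part of the listed genes in the remaining reads was not tested. The antisense gene Gm15938 overlaps Prkaa1 without sharing an exonic base and had 4 to 17 counts per sample.

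Prkaa2 (ENSMUSG00000028518.8, chr4:105029874-105109890, minus strand), whose α2 protein is a catalytic subunit of muscle and liver AMPK, was not detected above the floor in either genotype. It had 0 counts in all 4 KO mLN samples and in all 3 WT mLN samples, a single count in KO spleen sample 1, and a single count in WT spleen samples 2 and 3. These 3 counts among 156317144 reads on genes lie at the floor of 3 counts below which no level was read. Taken over the KO samples of an organ, a floor of 3 counts corresponds to 0.0704 CPM in spleen and 0.0693 CPM in mLN. The levels of the α genes can be compared only per length of exon. Per kilobase (kb) in mLN, where Prkaa2 had 0 counts, Prkaa1 stood at least 943-fold higher in WT and at least 684-fold higher in KO, with Prkaa2 set to 3 counts over the group. Floors and counts cover counting error only, since the reads carry no molecular identifiers.

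The β subunits hold the complex together and bind glycogen. Prkab1 (ENSMUSG00000029513.14, chr5:116013586-116024508, minus strand) had 68.5, 74.4, 74.8 and 71.6 CPM in WT spleen and 78.8, 78.1, 68.4 and 65.5 CPM in KO spleen. Its mLN levels were 73.3, 76.3 and 68.0 CPM in WT and 74.4, 87.6, 76.7 and 77.1 CPM in KO. The ranges of WT and KO overlapped in both organs, with a log2 fold change of 0.02 in spleen (95% interval -0.14 to 0.18, adjusted p = 0.910) and 0.11 in mLN (95% interval -0.11 to 0.33, adjusted p = 0.649). The upper ends of these intervals allow a KO level of at most 1.13 times WT in spleen and 1.26 times WT in mLN.

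Prkab2 (ENSMUSG00000038205.12, chr3:97658193-97673812, plus strand) was the scarce β gene, with 5.02, 4.91, 4.27 and 8.52 CPM in WT spleen and 5.15, 5.63, 5.65 and 5.05 CPM in KO spleen. WT spleen sample 4 was the highest of these. The other WT samples (4.27 to 5.02 CPM) lay just below all KO samples (5.05 to 5.65 CPM), so the overlap in spleen rested on WT sample 4. In mLN it had 5.73, 2.27 and 3.99 CPM in WT (62, 23 and 40 counts) and 7.84, 7.99, 7.53 and 6.96 CPM in KO (87, 87, 76 and 78 counts), so that all KO samples lay above all WT samples. Groups that did not overlap with KO higher were found for 7.49% of all genes tested in mLN. The log2 fold change in mLN was 0.91 (SE 0.324, 95% interval 0.19 to 1.62, unadjusted p = 0.0175), and it did not pass the adjusted threshold (adjusted p = 0.218). It ranged from 0.62 to 1.27 as single samples were left out. In spleen it was -0.06 (95% interval -0.55 to 0.42, adjusted p = 0.901). The difference between the organs, tested as the interaction of genotype and organ, was 0.96 (unadjusted p = 0.0228, adjusted p = 0.9998).

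**Figure D2:**
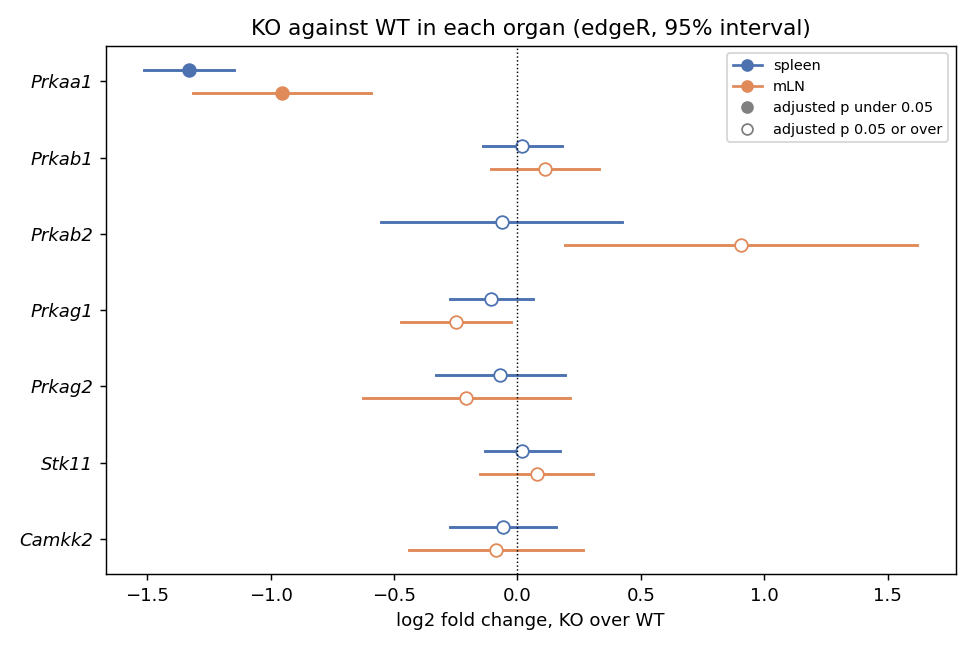
Log2 fold change of KO over WT (x axis) for each tested member (y axis) in spleen and mLN. Points are edgeR estimates, lines their 95% intervals, and filled points have an adjusted p under 0.05. Only Prkaa1 is filled, at -1.33 in spleen and -0.95 in mLN; the mLN interval of Prkab2 (0.19 to 1.62) lies above 0 with an open point.

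The γ subunits carry the nucleotide-binding sites. Prkag1 (ENSMUSG00000067713.7, chr15:98812797-98831521, minus strand) had 115, 147, 122 and 141 CPM in WT spleen and 121, 126, 115 and 122 CPM in KO spleen. In mLN it had 165, 181 and 195 CPM in WT and 168, 160, 142 and 141 CPM in KO. KO and WT overlapped in each organ, and the log2 fold change was -0.11 in spleen (95% interval -0.27 to 0.06, adjusted p = 0.468) and -0.25 in mLN (95% interval -0.47 to -0.03, unadjusted p = 0.0314, adjusted p = 0.266). Prkag1 shares 950 exonic bases with the antisense gene B130046B21Rik, and 20.1% of its 75-base words occur there, so reads of the pair may not be told apart. B130046B21Rik itself had a log2 fold change of -0.24 in mLN (adjusted p = 0.251).

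Prkag2 (ENSMUSG00000028944.14, chr5:24862744-25100642, minus strand), known from mutations that cause glycogen storage in the heart, had 24.2, 30.1, 29.4 and 33.4 CPM in WT spleen and 29.6, 28.0, 22.96 and 30.0 CPM in KO spleen. Its mLN levels were 26.5, 26.9 and 25.0 CPM in WT and 15.6, 22.4, 28.2 and 25.2 CPM in KO. The groups overlapped in both organs, with a log2 fold change of -0.07 in spleen (adjusted p = 0.786) and -0.21 in mLN (95% interval -0.63 to 0.21, adjusted p = 0.661). Of its 75-base words, 10.3% occur in the antisense genes Prkag2os1 and Prkag2os2, which had at most 37 counts in any sample. Prkag3 (ENSMUSG00000006542.13, chr1:74738922-74749221, minus strand), the γ subunit of fast skeletal muscle, had 1 count in WT spleen sample 2, 1 count in KO mLN sample 3 and 0 counts in every other sample.

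Stk11 and Camkk2, the kinases that phosphorylate the activation loop, did not pass the test of KO against WT. Stk11 (ENSMUSG00000003068.16, chr10:80115803-80130682, plus strand) had 188, 192, 196 and 168 CPM in WT spleen and 188, 189, 181 and 191 CPM in KO spleen. The mLN samples had 137, 126 and 129 CPM in WT and 115, 148, 146 and 149 CPM in KO. KO mLN sample 1 was the lowest of all 15 samples and the other KO mLN samples were above the WT range. The log2 fold change was 0.02 in spleen (95% interval -0.13 to 0.17, adjusted p = 0.900) and 0.08 in mLN (95% interval -0.15 to 0.31, adjusted p = 0.769).

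Camkk2 (ENSMUSG00000029471.13, chr5:122731170-122779409, minus strand) had 53.8, 54.1, 41.5 and 58.4 CPM in WT spleen and 51.9, 51.5, 44.6 and 49.3 CPM in KO spleen. The mLN samples had 36.2, 35.9 and 38.9 CPM in WT and 39.1, 30.2, 28.8 and 42.2 CPM in KO. The genotypes overlapped in both organs. Its log2 fold change was -0.06 in spleen (95% interval -0.27 to 0.15, adjusted p = 0.775) and -0.08 in mLN (95% interval -0.44 to 0.27, adjusted p = 0.847).

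To compare the members with each other, CPM was divided by the length of the merged exons in kb. Prkag1 was highest in every group, at 60.4 ± 6.85 CPM per kb in WT spleen (SD, n = 4) and 82.8 ± 6.90 in WT mLN (n = 3). It was followed by Stk11 at 40.7 ± 2.73 and 28.6 ± 1.27, by Prkab1 at 23.6 ± 0.963 and 23.7 ± 1.38, and by Prkaa1 at 10.98 ± 0.797 and 11.5 ± 1.41. These neighbours did not overlap in either WT group. Camkk2 and Prkag2 came next and overlapped in WT spleen (4.76 ± 0.664 and 4.52 ± 0.588 CPM per kb), and Prkab2 was last of the detected genes at 1.12 ± 0.377 in WT spleen.

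In KO spleen, Prkaa1 lay between Camkk2 and Prkag2, at 4.33 ± 0.297 CPM per kb, and its range overlapped with both. In KO mLN it kept the fourth place at 5.95 ± 1.15, above the ranges of Prkag2 and Camkk2. With the longest transcript as the length, Prkaa1 took the sixth place in both KO groups, since the merged exons of Camkk2 and Prkag2 are far longer than their longest transcripts.

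**Figure D3:**
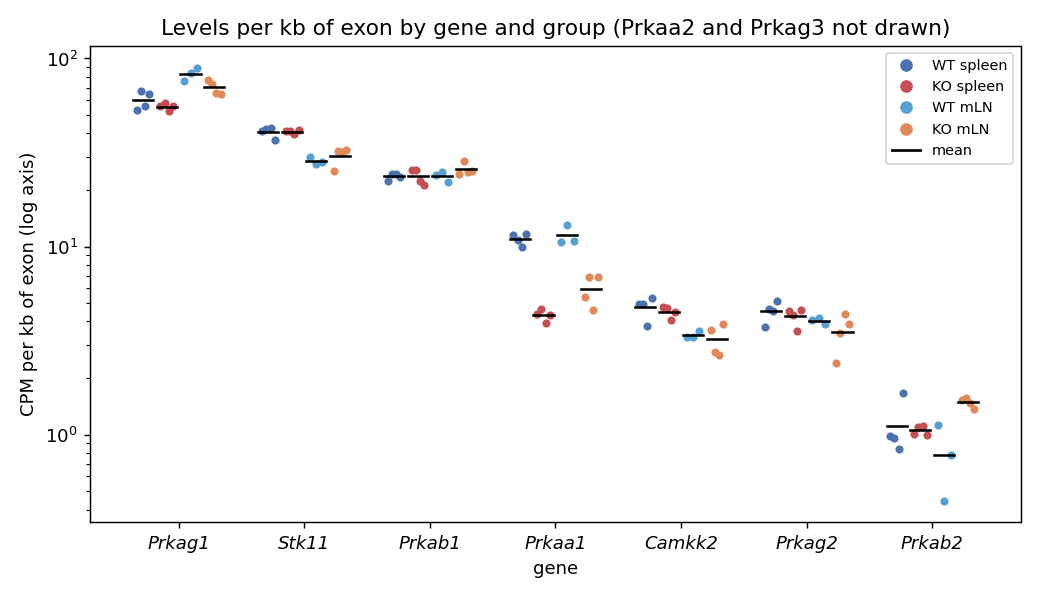
Level per kb of merged exon (y axis, log scale) of the 7 detected members (x axis) in the 4 groups; points are samples and bars are means. Prkag1 is highest in every group, and Prkaa1 moves from 10.98 CPM per kb in WT spleen to 4.33 in KO spleen, next to Camkk2 and Prkag2.

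Within the β pair, Prkab1 supplied 95.5% ± 1.49 of the summed level per kb in WT spleen (SD, n = 4) and 95.7% ± 0.404 in KO spleen (n = 4). In mLN its share was 96.8% ± 1.38 in WT (n = 3) and 94.5% ± 0.376 in KO (n = 4), with Prkab2 at 1.76% to 4.49% of the β sum in the WT samples and 5.15% to 5.96% in the KO samples. Prkag1 supplied 93.0% ± 0.513 of the γ sum in WT spleen and 92.9% ± 0.634 in KO spleen, and 95.3% ± 0.502 in WT mLN and 95.1% ± 1.44 in KO mLN. The summed β level per kb was 24.7 ± 0.933 in WT spleen, 24.8 ± 2.21 in KO spleen, 24.4 ± 1.30 in WT mLN and 27.2 ± 1.96 in KO mLN. The α genes stood at 0.446 ± 0.044 of the β sum in WT spleen and 0.175 ± 0.013 in KO spleen. In mLN this ratio was 0.469 ± 0.048 in WT and 0.218 ± 0.036 in KO.

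The same genes were then compared between the organs within each genotype, which share their samples with the comparisons of KO against WT. Of the 7 members tested, 3 differed between mLN and spleen in WT cells and 4 in KO cells. Beside them, 20.5% of all genes tested were called in WT and 25.5% in KO, so a difference between the organs is common among all genes. Prkag1 rose and both upstream kinase genes fell in mLN in both genotypes.

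Stk11 had 168 to 196 CPM in WT spleen and 126 to 137 CPM in WT mLN, with no overlap, and its log2 fold change was -0.47 (SE 0.089, 95% interval -0.67 to -0.27, adjusted p = 0.00660). In KO cells it had 181 to 191 CPM in spleen and 115 to 149 CPM in mLN, a log2 fold change of -0.42 (SE 0.080, 95% interval -0.59 to -0.24, adjusted p = 0.00297). Stk11 shares 232 exonic bases with Cbarp on the opposite strand, and 3.25% of its 75-base words occur there. Cbarp fell as well, by 0.71 on the log2 scale in WT (adjusted p = 0.00702) and by 0.51 in KO (adjusted p = 0.0121), at 137 to 302 counts per sample.

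Camkk2 had 41.5 to 58.4 CPM in WT spleen and 35.9 to 38.9 CPM in WT mLN, a log2 fold change of -0.45 (SE 0.117, 95% interval -0.71 to -0.19, adjusted p = 0.0253). In KO cells the ranges were 44.6 to 51.9 and 28.8 to 42.2 CPM, a log2 fold change of -0.48 (SE 0.131, 95% interval -0.77 to -0.19, adjusted p = 0.0199). The organs did not overlap in either genotype, as for 31.5% of all genes tested in WT and 28.7% in KO. The WT call was lost without WT spleen sample 1, 2 or 4 or WT mLN sample 1 or 2 (adjusted p 0.0517 to 0.0794), and the KO call without KO spleen sample 1 or 2 (adjusted p = 0.0526 and 0.0505).

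Prkag1 had 115 to 147 CPM in WT spleen and 165 to 195 CPM in WT mLN, a log2 fold change of 0.50 (SE 0.099, 95% interval 0.27 to 0.72, adjusted p = 0.00850). In KO cells it had 115 to 126 CPM in spleen and 141 to 168 CPM in mLN, a log2 fold change of 0.35 (SE 0.079, 95% interval 0.17 to 0.52, adjusted p = 0.00811). Its antisense partner B130046B21Rik had 771 to 1298 counts per sample and rose by 0.51 on the log2 scale in WT (adjusted p = 0.00767) and by 0.33 in KO (adjusted p = 0.00811). The part of B130046B21Rik reads in the Prkag1 values was not tested.

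Prkaa1 did not pass the test between the organs in WT cells, at 46.3 to 54.1 CPM in spleen and 49.0 to 60.9 CPM in mLN (log2 fold change 0.10, 95% interval -0.13 to 0.33, adjusted p = 0.530). In KO cells the remaining Prkaa1 reads were higher in mLN, at 21.4 to 32.2 CPM against 18.4 to 21.7 CPM in spleen, a log2 fold change of 0.47 (SE 0.145, 95% interval 0.15 to 0.78, adjusted p = 0.0344). KO mLN sample 3 was within the spleen range. This call was lost in 6 of the 8 fits that left out a sample, namely KO spleen sample 1, 2, 3 or 4 or KO mLN sample 2 or 4 (adjusted p 0.0669 to 0.0979). The interaction of genotype and organ for Prkaa1 was 0.37 (95% interval -0.01 to 0.75, unadjusted p = 0.0537, adjusted p = 0.9998). With edgeR, 0 of 15438 genes passed the adjusted threshold for the interaction (0.0%), 652 (4.22%) had an unadjusted p under 0.05, and DESeq2 called 2, none of them a member.

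**Figure D4:**
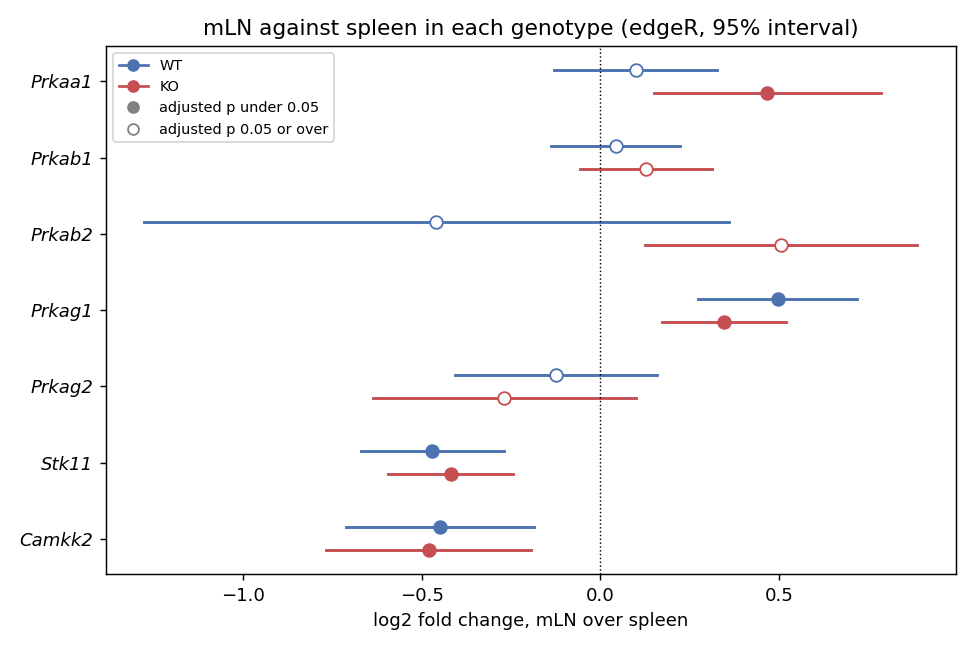
Log2 fold change of mLN over spleen (x axis) for each tested member (y axis) in WT and KO cells. Points are edgeR estimates, lines their 95% intervals, and filled points have an adjusted p under 0.05. Prkag1 lies to the right (0.50 in WT, 0.35 in KO) and Stk11 (-0.47, -0.42) and Camkk2 (-0.45, -0.48) to the left in both genotypes, and Prkaa1 is filled in KO alone (0.47).

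Genes around AMPK were read from 4 lists, in which 53 of 58 genes were tested. No listed gene passed the adjusted threshold for KO against WT in either organ (edgeR). At an unadjusted p under 0.05 there were 13 of 53 (24.5%) in spleen, beside 20.5% of all genes tested, and 7 of 53 (13.2%) in mLN, beside 15.7%. DESeq2 called 2 of 53 listed genes in spleen (3.77%, Fnip1 and Rptor), beside 5.68% of all genes it adjusted, and 0 of 53 in mLN, beside 3.81%. Without a filter on low counts edgeR called 5 of 58 in spleen (8.62%), beside 4.03% of all genes, and 1 of 58 in mLN (1.72%), beside 2.71%. Between the organs, 14 of 52 listed genes (26.9%) were called in WT, beside 20.5% of all genes tested, and 19 of 53 (35.8%) in KO, beside 25.5%. In WT 11 were lower and 3 higher in mLN, where 10.8% of all genes were lower and 9.7% higher. In KO 14 were lower and 5 higher, where 13.7% of all genes were lower and 11.8% higher.

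The list of LKB1 partners and other enzymes of the activation loop had 9 of 10 genes tested, with a median log2 fold change of 0.01 in spleen and -0.13 in mLN, where the median of all genes was close to 0 (-0.0041 and -0.0038). Cab39l, a scaffold protein of the LKB1 complex and the list's highest gene per kb, was 94.2 to 135 CPM in WT spleen and 79.3 to 98.5 CPM in KO spleen (log2 fold change -0.34, SE 0.103, adjusted p = 0.107). Ppm1a, a phosphatase that can remove the activating phosphate, was 33.9 to 36.2 CPM in WT mLN and 25.3 to 31.1 CPM in KO mLN (log2 fold change -0.30, SE 0.134, adjusted p = 0.316).

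The AMPK-related kinases, further targets of LKB1, had 9 of 12 genes tested and medians of 0.10 in spleen and 0.16 in mLN. Mark2, a polarity kinase and the highest of them per kb, was 142 to 156 CPM in WT spleen and 161 to 167 CPM in KO spleen (log2 fold change 0.15, adjusted p = 0.180). Brsk2 was a scarce transcript with 1.90 to 2.81 CPM in WT spleen and 0.98 to 1.68 CPM in KO spleen (log2 fold change -0.70, SE 0.257, adjusted p = 0.167). Snrk had the smallest p of the list in mLN, with 66.7 to 97.2 CPM in WT and 97.1 to 108 CPM in KO (log2 fold change 0.23, adjusted p = 0.443).

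The substrates and effectors in metabolism had 16 of 17 genes tested and medians of -0.10 in spleen and 0.02 in mLN. Pfkfb3, which makes the activator of the glycolytic enzyme phosphofructokinase, was 36.4 to 48.9 CPM in WT spleen and 50.5 to 57.1 CPM in KO spleen (log2 fold change 0.32, SE 0.097, adjusted p = 0.112). Pnpla2, the triglyceride lipase ATGL, was 68.3 to 87.5 CPM in WT mLN and 50.1 to 61.6 CPM in KO mLN (log2 fold change -0.41, SE 0.125, adjusted p = 0.156). Srebf2, the transcription factor of sterol synthesis and the list's highest gene per kb, had a log2 fold change of -0.06 in spleen and -0.19 in mLN.

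The substrates and effectors in growth and autophagy had all 19 genes tested and medians of 0.01 in spleen and 0.02 in mLN. Rptor, the mTORC1 subunit raptor, was 61.3 to 64.8 CPM in WT spleen and 69.3 to 78.1 CPM in KO spleen (log2 fold change 0.24, SE 0.060, adjusted p = 0.0706). DESeq2 placed it past the threshold (log2 fold change 0.25, adjusted p = 0.0304). Mtfr1l, a mitochondrial protein, had a log2 fold change of -0.27 in mLN (adjusted p = 0.227), and Becn1, the autophagy gene with the highest level per kb in the list, had 0.05 in spleen and 0.08 in mLN.

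**Figure D5:**
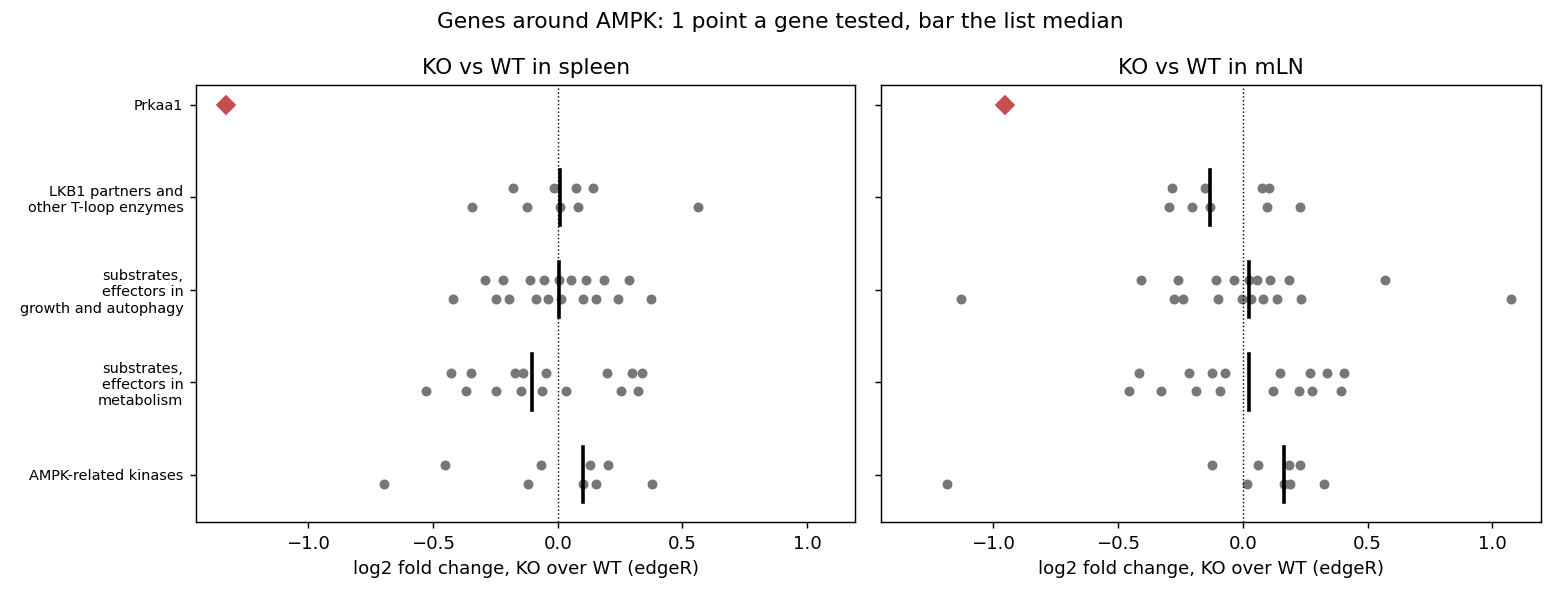
Log2 fold change of KO over WT (x axis) in spleen (left) and mLN (right) for the tested genes of the 4 lists (y axis), with 1 point a gene and a bar at each list's median. Prkaa1 (diamond) lies at -1.33 and -0.95, and the list medians lie between -0.13 and 0.16.

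Finally, the genes whose log2 CPM over the 15 samples was most like that of Prkaa1 were sought among 15437 other genes. The samples fall into WT and KO groups in Prkaa1, so these correlations share the genotype split and are given as a description. Apobec3, a cytidine deaminase that restricts retroviruses and also lies on chromosome 15, came first (Pearson r = 0.955, Spearman rho = 0.921), with 635 ± 41.8 CPM in WT spleen (SD, n = 4), 454 ± 15.5 in KO spleen (n = 4), 654 ± 47.9 in WT mLN (n = 3) and 518 ± 25.3 in KO mLN (n = 4). It was followed by Nudt16, a nudix hydrolase (r = 0.946), Tent5c, a poly(A) polymerase (r = 0.905), Pold2, a subunit of DNA polymerase delta (r = 0.892), and A430072P03Rik (r = 0.883). By Spearman rho, 1 of these 5, Apobec3, stayed among the first 5.

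The lowest correlations were those of Gm33707 (r = -0.945) and Gh, the gene of growth hormone (r = -0.927). Gh had 0 counts in all 7 WT samples and 311 to 412 counts in the KO samples, and Gm33707 had 0 counts in the WT samples and 20 to 86 in the KO samples. Only KO donors carried CD4-Cre, so the transgene and the loss of AMPKα1 cannot be told apart for Gh and Gm33707. The same holds for every other difference of KO against WT given here. Of the other tested members, Prkag1 was nearest to Prkaa1 (r = 0.458) and Prkab2 farthest (r = -0.391).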

How the data were processed

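mRNA of sorted CD4+ T cells was sequenced as single-end reads of 75 bases in 15 samples, with libraries from the NEBNext SingleCell/Low Input kit. The authors used STAR 2.6.1a with GRCm38 and GENCODE M23 and deposited raw read counts, 1 per gene and not normalized. The sources do not state which strand setting the counts come from, so overlapping and antisense genes are uncertain. The submitters' processing notes also name bcl2fastq 2.19.1.403, RSEM and DESeq2 1.22.2. Of the uniquely aligned reads, 58.4% to 63.4% lay on no gene, and these reads entered neither library sizes nor tests.

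Symbols, exons and transcripts came from GENCODE M21 on the same build, which held 55240 of the 55421 genes. CPM is the count per 1000000 reads on genes. Fold changes and their intervals came from edgeR 4.0.16 in R 4.3.3 (edgeR's filter on low counts, TMM, quasi-likelihood test), fitted for each comparison on its own samples. Adjustment was by Benjamini-Hochberg across the genes of a fit, and calls needed an adjusted p under 0.05 with no fold minimum. The interaction was fitted on all samples. Correlations with Prkaa1 used log2 CPM with a prior count of 2. The procedures were tested on simulated data. DESeq2 1.42.0, RLE, no TMM factor, no filter, at least 10 counts in every sample, the replicate number as a block, 1 fit of all samples and each sample left out in turn were the alternatives. Tables, permutation tests and plots were made in Python 3.11.15 (scipy 1.17.1, pandas 2.3.3, numpy 2.4.6, matplotlib 3.10.9).

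Same-numbered WT samples of spleen and mLN deviated together from their group means (correlations 0.242 to 0.291), so the numbers were taken to pair them. The correlations were 0.026 to 0.259 for KO spleen and mLN, -0.208 to 0.146 for WT and KO spleen and -0.053 to 0.002 for WT and KO mLN. The genes named are the members, in each list the gene with the smallest p in each organ and the highest gene per kb, and the 5 genes most and 2 least like Prkaa1. Fnip1, B130046B21Rik, Cbarp and the marker genes named one by one were added after their values were seen. The members follow a rule on gene symbols that uses no measured value, but the members and lists were picked with earlier results of these data known. A table of protein sequences was not used here.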

Additional observations from a re-analysis of the deposited data

Results flagged for a closer look

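Stk11 in KO mLN sample 1 stood at 115 CPM, far below the other 3 KO mLN samples at 146 to 149 CPM. Its gap to the nearest sample, as a share of the group's range, exceeded Dixon's 95% critical value for 4 samples. Groups of 4 samples were examined in this way for 54 combinations of gene and group, and 1 was set apart, where chance alone sets apart about 1 in 20.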

How the results depend on the processing

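The fall of Prkaa1 in spleen passed the threshold under every alternative run (log2 fold change -1.37 to -1.29). In mLN it passed under the other tool, normalizations, filters and samples in the fit, but not with the replicate block (-0.85, adjusted p = 0.117) and not without any of the mLN samples (-1.03 to -0.85). The cause was not tested. Only same-numbered WT samples of the 2 organs were taken as pairs. There the block changed no call of a member, and among the other comparisons it changed only that of Prkaa1 in mLN. Counts of all genes called moved most. For KO against WT in spleen, 185 became 799 with DESeq2, 1422 without a filter on low counts, 17 with the replicate block, 85 with all samples in 1 fit and 12 to 324 as single samples were left out. For KO against WT in mLN, 92 became 561 with DESeq2, 913 without a filter, 1 with the block, 500 with all samples in 1 fit and 4 to 117 without single samples. For mLN against spleen in WT, the 2980 genes became 4351 with the replicate block, 3493 with all samples in 1 fit and 1838 to 2780 without single samples. For the interaction, 0 became 2 with DESeq2, 112 without a filter and 3 with the block. The number of members called for KO against WT in mLN was 0 with the block and 0 without any single sample, and for mLN against spleen in KO it was 2 to 4 without single samples. Of the 5 genes most like Prkaa1, 1 was among the first 5 by Spearman rho.

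Some log2 fold changes near 0 that passed no test changed sign. Without single samples, KO against WT in spleen ran from -0.013 to 0.059 for Prkab1, -0.17 to 0.19 for Prkab2, -0.15 to 0.0078 for Prkag2, -0.030 to 0.057 for Stk11 and -0.12 to 0.017 for Pnpla2. In mLN it ran from -0.17 to 0.00070 for Camkk2, -0.048 to 0.39 for Brsk2 and -0.023 to 0.076 for Mark2. The interaction for Camkk2 was 0.00047 without a TMM factor, 0.042 with the replicate block and -0.12 to 0.061 without single samples. Prkab2 in mLN against spleen in KO passed the threshold with at least 10 counts in every sample (0.50, adjusted p = 0.0491) and without KO mLN sample 4 (0.55, adjusted p = 0.0467). Prkaa2 and Prkag3 were too scarce to test, and of the members tested Prkab2 had the fewest counts, at 23 to 87 per sample.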
